A study of Mus musculus with 12 samples.

Results

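H3K27ac, an acetylated histone H3 residue that marks active promoters and enhancers, was compared between 4T1 cells given etomoxir, SB204990 and acetate together and 4T1 cells given acetate without either inhibitor. The comparison rests on 4 of the 12 libraries of the series, which are the 2 etomoxir + SB204990 + acetate libraries and the 2 acetate libraries, chosen by their labelled treatment. All 4 cultures received 5 mM acetate for 48 h, and the combined group also received 50 µM etomoxir and 50 µM SB204990. 4T1 is a mouse mammary carcinoma cell line that forms metastases, so each group is 1 line in culture. Each treatment had 1 library in each of 2 series of library names, called set 1 and set 2 here because the labels do not explain the suffix. The labels do not state whether the libraries of a group came from separate cultures. The p-values below therefore measure only a spread between libraries, which may be technical. The fits share that spread over intervals or genes of similar mean signal, so a p-value does not rest on the libraries of 1 interval alone.

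The other 8 libraries, vehicle, etomoxir, etomoxir + acetate and etomoxir + SB204990, entered the fits to estimate the spread and are shown as a reference. Human chromatin amounting to 7.5% had been added before the immunoprecipitation, and the deposited value of an interval is its read count times a spike-in factor. The 4 libraries held 11597199 to 16676442 reads in 126464 intervals, with factors of 0.604 to 0.867. Of 8 epithelial carcinoma marker genes, 8 had an interval over their transcription start site, with 33.4 to 71.7 units of deposited signal per kb in the 4 libraries, against a median of 41.8 over all intervals with such a start. Krt8 and Krt18 had identical values and are not separate evidence. Of the leukocyte markers 1 of 6 had such an interval, Csf1r with 25.7 to 32.3 units per kb, just below the epithelial range. Of the endothelial markers 1 of 4 had one, Pecam1 with 10.9 to 16.5, and of the adipocyte and fibroblast markers 0 of 4 each.

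Acetyl-CoA is the acetyl donor for histones. Etomoxir blocks carnitine palmitoyltransferase 1 (Cpt1a), which loads long-chain fatty acids onto carnitine so that they can enter mitochondria and be oxidized to acetyl-CoA. SB204990 blocks ATP citrate lyase (Acly), which releases acetyl-CoA from citrate exported to the cytosol. Acetate enters the same pool through acetyl-CoA synthetase (Acss2). Fatty acids that are not oxidized can bind peroxisome proliferator-activated receptors (PPARs), nuclear receptors that pair with retinoid X receptors and are known to bind a pair of AGGTCA half-sites spaced by 1 base, called DR1. Genes known as PPAR targets include Pdk4, Cpt1a, Angptl4, Acot1, Acot2 and Ucp3.

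To show the DNA under the intervals that rose, windows of 61 bases around matches to a loose form of DR1, AGGNCA followed by 1 further base and AGGNCA again (N is any base), are printed with the match in capitals (RefSeq GRCm38.p6, read 5′ to 3′ on the plus strand). The first lies in a Cpt1a intron and holds the exact form, with AGGTCA on both sides of the spacer base, the second lies in another Cpt1a intron stretch, the third in an Angptl4 intron, the fourth upstream of Hilpda, and the fifth, also exact, between Asb4 and Pdk4. These 5 were picked after the values were seen, outside exons, from called intervals that the text describes, and the sixth, in an interval near Crybg1, is shown because it is the exact match in sequence not masked as repetitive. No match to the loose form was found in the Pdk4 start, Acot2 or Fbp2 intervals, which had larger increases.
Cpt1a, chr19:3341983-3342043: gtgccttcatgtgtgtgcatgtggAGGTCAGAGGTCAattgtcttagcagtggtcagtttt
Cpt1a, chr19:3335933-3335993: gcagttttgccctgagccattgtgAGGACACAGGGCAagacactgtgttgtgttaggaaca
Angptl4, chr17:33775751-33775811: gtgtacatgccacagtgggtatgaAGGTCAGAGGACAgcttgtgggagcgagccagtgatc
Hilpda, chr6:29250205-29250265: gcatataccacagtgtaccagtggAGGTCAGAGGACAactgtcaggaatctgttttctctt
Asb4 and Pdk4, chr6:5452288-5452348: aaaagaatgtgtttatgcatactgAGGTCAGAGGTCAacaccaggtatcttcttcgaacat
Crybg1, chr10:44152312-44152372: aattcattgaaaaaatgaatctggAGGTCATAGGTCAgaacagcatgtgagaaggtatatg
The matches in the second and sixth windows lie in sequence that the assembly does not mask as repetitive, and the other 4 lie in masked repeats. Searched on both strands, the loose form occurred in 19 of the 66 intervals called higher on the share scale described below (28.8%) and in 8.03% of 63848 tested intervals on placed chromosomes, but the called intervals were longer. It occurred in 5 of the 24 intervals called lower (20.8%). Per 100 kb the densities were 3.531 matches in those called higher, 1.995 in those called lower and 2.496 in all. In the central 2000 bp the loose form was found in 3.03% of the intervals called higher, 4.35% of those called lower and 4.23% of all tested intervals of that length or more. The exact form was in 4 of the 66 (6.06%) and 1 of the 24 (4.17%) against 1.16% of all. For the 66 and for all this was 0.588 against 0.306 matches per 100 kb, and in the central 2000 bp it was in 0 of 66 against 0.51%. Of the 21 loose matches examined in these intervals 61.9% lay in masked repeats, and of the 6448 in all tested intervals 55.9% did. The AP-1 motif TGANTCA was in the central 2000 bp of 66.7% of the intervals called higher, 69.6% of those called lower and 58.0% of all.

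The promoter of Pdk4, whose interval had one of the largest increases, is given as the 250 bases before its start (RefSeq GRCm38.p6, minus strand), with AGGNCA half-sites on either strand in capitals.
Pdk4, chr6:5496279-5496528: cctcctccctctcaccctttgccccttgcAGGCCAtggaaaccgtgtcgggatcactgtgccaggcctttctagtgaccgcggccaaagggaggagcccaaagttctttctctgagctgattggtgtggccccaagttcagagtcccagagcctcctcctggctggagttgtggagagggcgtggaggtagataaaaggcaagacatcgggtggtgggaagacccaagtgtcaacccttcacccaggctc
It held 1 half-site, and 51.3% of 32851 promoter windows of this length held 1 or more. A match of this kind is a description of the letters and not a binding site.

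To see whether both inhibitors changed the amount of H3K27ac when acetate was supplied, the scaled totals over all intervals were compared. The acetate libraries had totals of 10066498 units in set 1 and 9990920 in set 2. The combined libraries had 8588560 in set 1 and 11266173 in set 2. The acetate totals lay between those of the combined libraries, so the groups overlapped as deposited. Each set has 1 library with a factor of 1, the highest of its set, as dividing by the highest factor within each set would give. The factors of the 2 sets may thus not be on 1 scale, which the sources used here do not state. Only the ratios within a set are free of this doubt. The overlap above, the permutation test and the main deposited fits below pool the sets and carry it. The combined treatment had 0.853 times the acetate total in set 1 and 1.128 times in set 2, and the ratio of the mean totals was 0.990. The mean log2 difference was -0.03 ± 0.28 (SD over the 2 sets), with p = 1 in an exact two-sided permutation test, in which 2 against 2 libraries cannot go below 0.333. The ratios of the 2 sets lay on opposite sides of 1, and a change in total level was not detectable with these libraries.

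Because the deposited totals of the combined treatment differed by 1.31-fold between sets, a difference to which the same doubt applies, interval values were tested as deposited and after each library was divided by its own total and multiplied by the mean total, called the share scale. The share scale shows which intervals took more or less of a library's signal and is blind to a change that all intervals share. Both scales used the same 63903 intervals, whose mean over the 12 libraries was 10 or more, and 62561 weaker intervals were not tested. On the deposited scale limma called 27 intervals higher (0.0423% of those tested) and 1 lower (0.00156%) in the combined treatment at an adjusted p under 0.05, and 687 had an unadjusted p under 0.05. All of these deposited calls, the Pdk4 interval below included, were lost without the intensity trend of the fit (0 called, 729 unadjusted) and with the share of reads times the factor in place of the deposited value (0 called, 32 unadjusted). On the share scale it called 66 higher (0.103%) and 24 lower (0.0376%), and 2770 had an unadjusted p under 0.05. Without the intensity trend 2 of these 90 calls were made, both higher (2740 unadjusted). A fit of only the 4 libraries called 168 higher and 164 lower. All 27 deposited calls higher and the 1 lower were also called on the share scale. The median log2 fold change over all tested intervals was -0.01 as deposited and 0.01 on the share scale, and the median SE fell from 0.41 to 0.30. Without the acetate library of set 1 or 2 the fit made 13 and 14 calls as deposited and 34 and 53 on the share scale. Without the combined library of set 1 or 2 it made 28 and 4 as deposited and 30 and 33 on the share scale. All of these were among the calls from 12 libraries, except that 22 of the 28 and 47 of the 53 were. In all 90 share calls both combined libraries lay on the same side of both acetate libraries. That was the case for 17.8% of all tested intervals in the higher direction and 15.8% in the lower direction on the share scale, and for 10.8% and 11.6% as deposited.

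**Figure D1:**
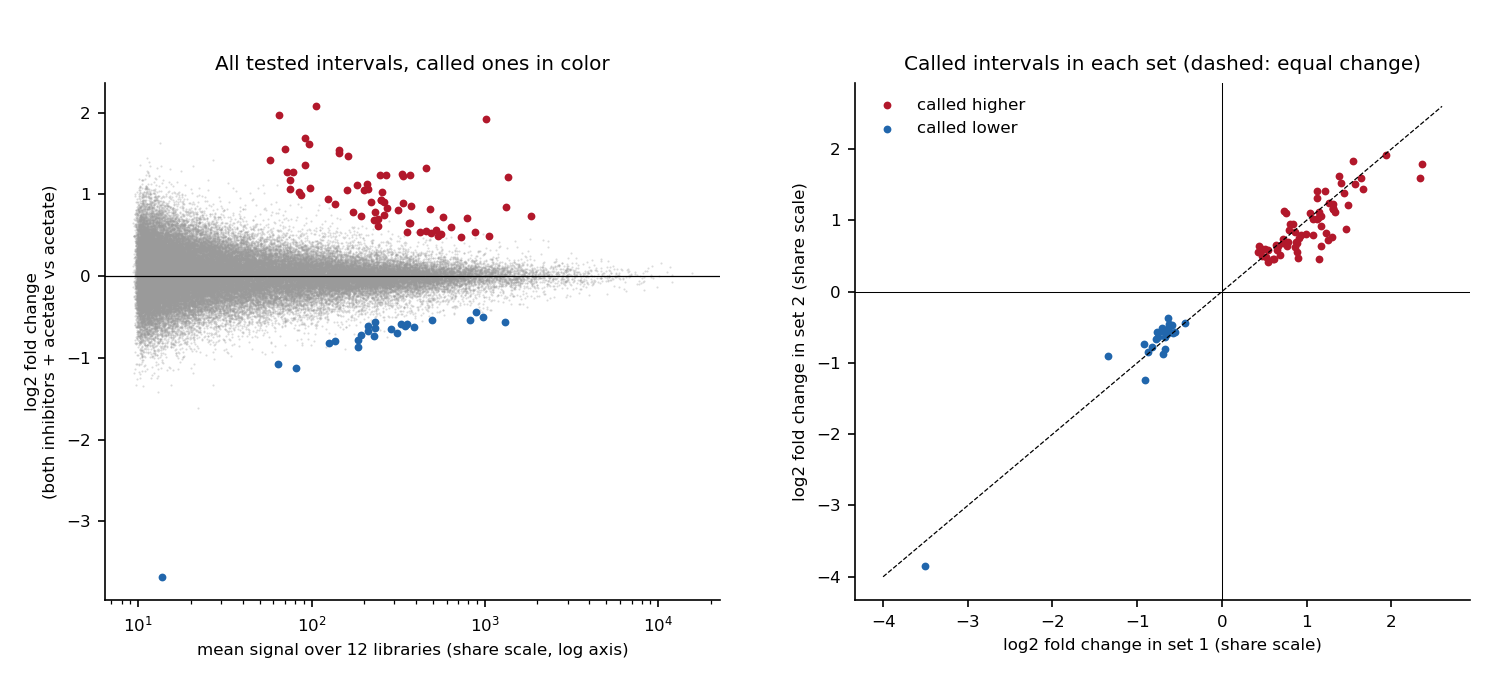
Log2 fold change of every tested interval against its mean signal (left, log axis) and the change in set 1 against that in set 2 for the called intervals (right), both on the share scale, with 66 intervals called higher in red and 24 called lower in blue. Every called interval changed in the same direction in both sets, and the lowest point is a 260 bp interval on chromosome Y.

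Among the intervals with the largest increases were ones at Pdk4, Acot2 and Fbp2. Of the 66 intervals called higher on the share scale, 15 (22.7%) were near a gene of the lists used here, as were 2 of the 24 called lower (8.33%) and 3.65% of all tested intervals, but the lists were chosen with these results known and the called intervals were longer, with medians of 8359.5 and 7374.5 bp against 1831 bp. Pdk4, a kinase that shuts off the pyruvate dehydrogenase complex, had an interval of 24197 bp from its start upstream (chr6:5495394-5519590) with 362 and 358 units on the share scale in the acetate libraries of set 1 and set 2. The combined libraries had 1384 and 1359 units. The groups were far apart and each pair was tight, and the log2 fold change was 1.93 ± 0.09 (SE), or 3.80-fold, with a limma adjusted p of 1.59e-09. As deposited it was 1.90 ± 0.18 with a limma adjusted p of 5.09e-21. The smaller p-value came with the larger SE, because the 2 fits share the spread over intervals to different degrees. These 2 p-values are not comparable.

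Acot2 encodes a mitochondrial thioesterase that frees fatty acids from CoA, and Acot1 is its cytosolic relative. The intergenic interval between them, 11058 bp downstream of the Acot2 start (chr12:83996578-84001260), had 34.4 and 42.4 units in the acetate libraries and 182 and 149 in the combined libraries. It had the largest increase on both scales, at 2.08 ± 0.17 on the share scale (4.22-fold, limma adjusted p = 6.05e-06) and 2.05 ± 0.27 as deposited. The interval over the Acot2 start, chosen after its values were seen, rose less, from 195 and 151 units to 323 and 330.5 (0.93 ± 0.14), and it was not called as deposited (limma adjusted p = 0.0611).

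Fbp2, the muscle form of fructose-1,6-bisphosphatase, rose over its start (chr13:62856386-62860871) from 48.1 and 48.7 units to 152 and 149 (1.62 ± 0.18). Ucp3, a mitochondrial carrier of the uncoupling protein family, rose upstream of its start (chr7:100458900-100469983) from 203 and 196 units to 504 and 443 (1.24 ± 0.11). In both of these intervals the lowest combined library was above the highest acetate library by 2-fold or more. Both were called on both scales. The Ucp3 interval overlaps another gene, C2cd3, so its signal cannot be given to Ucp3 alone.

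The carnitine shuttle, the route that etomoxir blocks, had 2 called intervals, which were chosen after their values were seen. The Cpt1a interval covers its start and part of its introns (chr19:3320685-3347179) and had 895 and 946 units in the acetate libraries and 1623 and 1697 in the combined libraries. It rose by 0.85 ± 0.09 on the share scale (limma adjusted p = 1.33e-04) and by 0.82 ± 0.18 as deposited (limma adjusted p = 8.17e-03). The interval over the start of Cpt2, which takes the fatty acid off carnitine inside the mitochondrion, went from 116 and 127 units to 213 and 205 (0.78 ± 0.13), a call on the share scale that was not made as deposited.

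Calls were also made near Angptl4, Hilpda, Nceh1 and Hsd17b11, genes of lipid storage and release that were grouped here from the calls and do not form a list. Of the 10 tested genes of the lipid droplet list 1 was called, with a list median of 0.02 against 0.01 over all genes on the share scale. The interval over the start of Angptl4, a secreted inhibitor of lipoprotein lipase (chr17:33774033-33792193), carries the symbol 4931413I07Rik in the deposited table and was chosen after its values were seen. It had 787 and 759 units in the acetate libraries and 1711 and 1892 in the combined libraries, a change of 1.22 ± 0.11 that was called on both scales. An interval at -26290 bp from the start of Hilpda, a lipid droplet protein that inhibits the lipase Pnpla2, rose from 271 and 216 units to 632 and 579.6 (1.32 ± 0.14). The interval over the Hilpda start, which also covers the start of Fam71f2, had 0.72 ± 0.11, a share-scale call chosen after its values were seen. Nceh1, a cholesterol ester hydrolase, and Hsd17b11, a lipid droplet enzyme, had called intervals with 0.86 and 0.53 for the first and 0.65 for the second on the share scale, also chosen after their values were seen. None of these 3 was called as deposited.

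**Figure D2:**
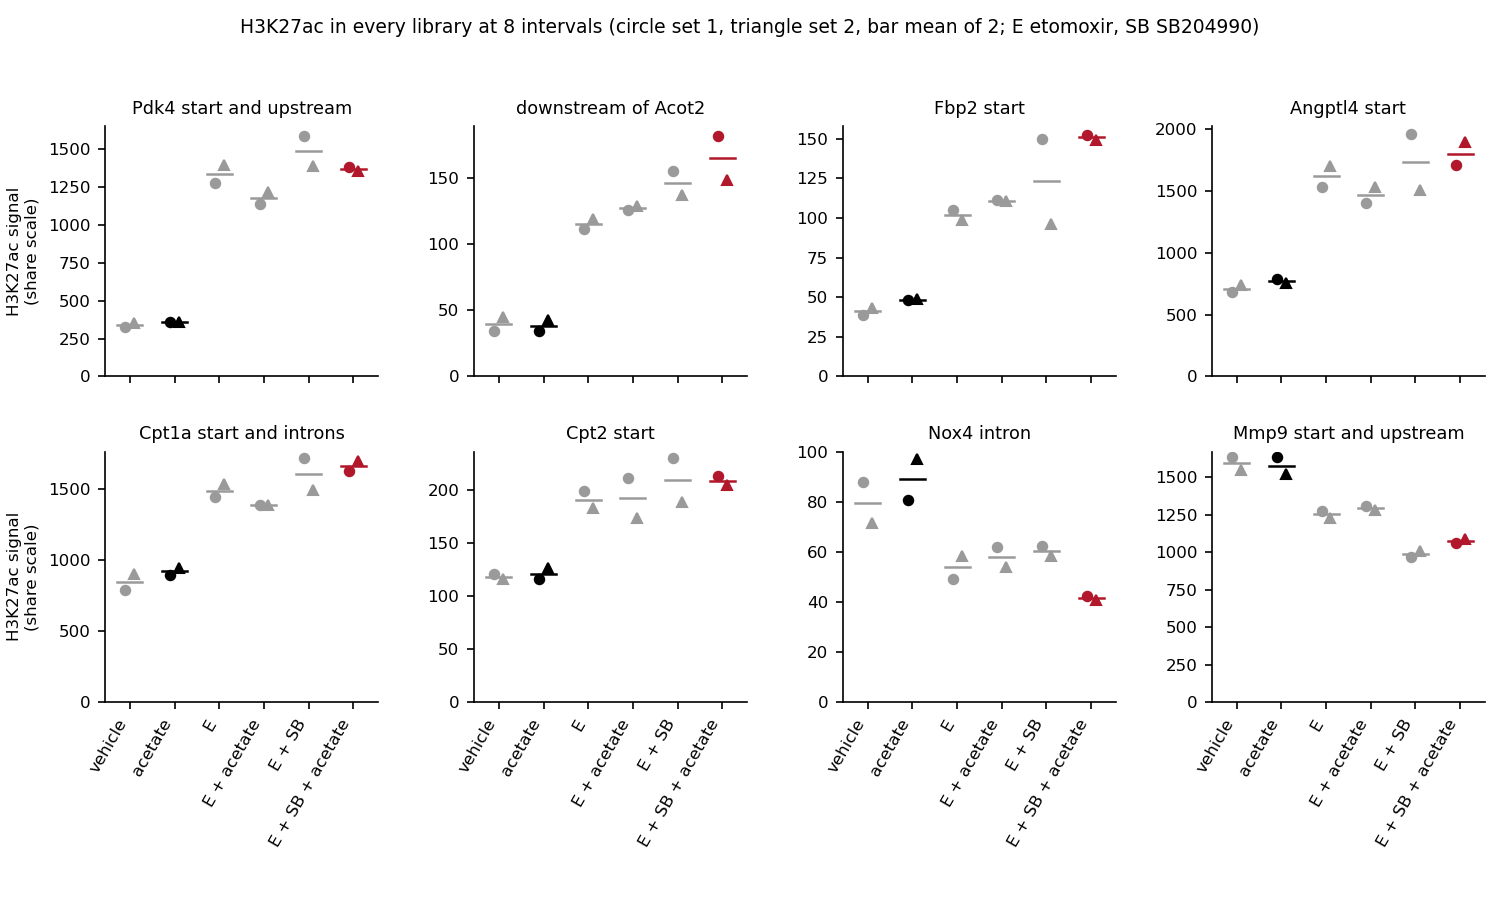
Share-scale H3K27ac signal of every library at 8 intervals, by treatment, with circles for set 1, triangles for set 2 and bars for the mean of 2 libraries. The combined libraries (red) lie above the acetate libraries (black) at the first 6 intervals and below them at the Nox4 and Mmp9 intervals, and the other inhibitor libraries lie on the same side of acetate as the combined libraries.

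Other large increases lay near genes outside the lists used here. An interval at -28229 bp from the start of Ppef1, which encodes a calcium-binding protein phosphatase, rose from 51.9 and 37.7 units to 154 and 137 (1.69 ± 0.19). One at -15767 bp from the start of Tie1, a receptor of endothelial cells, rose from 29.5 and 33.8 to 96.1 and 93.3 (1.55 ± 0.19). An intronic interval of the noncoding gene 9330188P03Rik, whose nearest protein-coding gene is Spry2, rose by 1.54 ± 0.13, and one in an intron of Lrrc6, a cilium assembly gene, 2.83-fold. Smaller rises were seen near Gm28380 (1.42), Pate12 (1.35), Gm12480 (1.27) and Gm49390 (1.27). Outside the naming rule, and chosen after their values were seen, an interval near Areg, a ligand of the EGF receptor, had 1.17 ± 0.19, and one in an intron of Aldh1a1, a retinaldehyde dehydrogenase, had 0.93 ± 0.12. Of the 66 intervals called higher on the share scale, 32 were intergenic and 28 intronic in the table's annotation, and 13 covered the start of a protein-coding gene.

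Around Pdk4 the increase was not limited to 1 interval. All 14 tested intervals centred within 100 kb of its start had a log2 fold change above 0 on the share scale, from 0.04 to 1.93 with a median of 0.85, and 5 were called higher. Of all tested intervals 52.8% were above 0. The called ones include intervals at -90374 and -58202 bp from the start (1.25 ± 0.13 and 1.07 ± 0.12) and 2 on the Asb4 side of the gene (1.23 and 0.74), the last 3 of these chosen after their values were seen. Around Angptl4 14 of 16 were above 0 and 3 were called. Around Cpt1a 12 of 17 were above 0 and 1 was called. Around Acot2 4 of 6 were above 0 and 2 were called. Intervals of 1 region are not independent of each other.

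**Figure D3:**
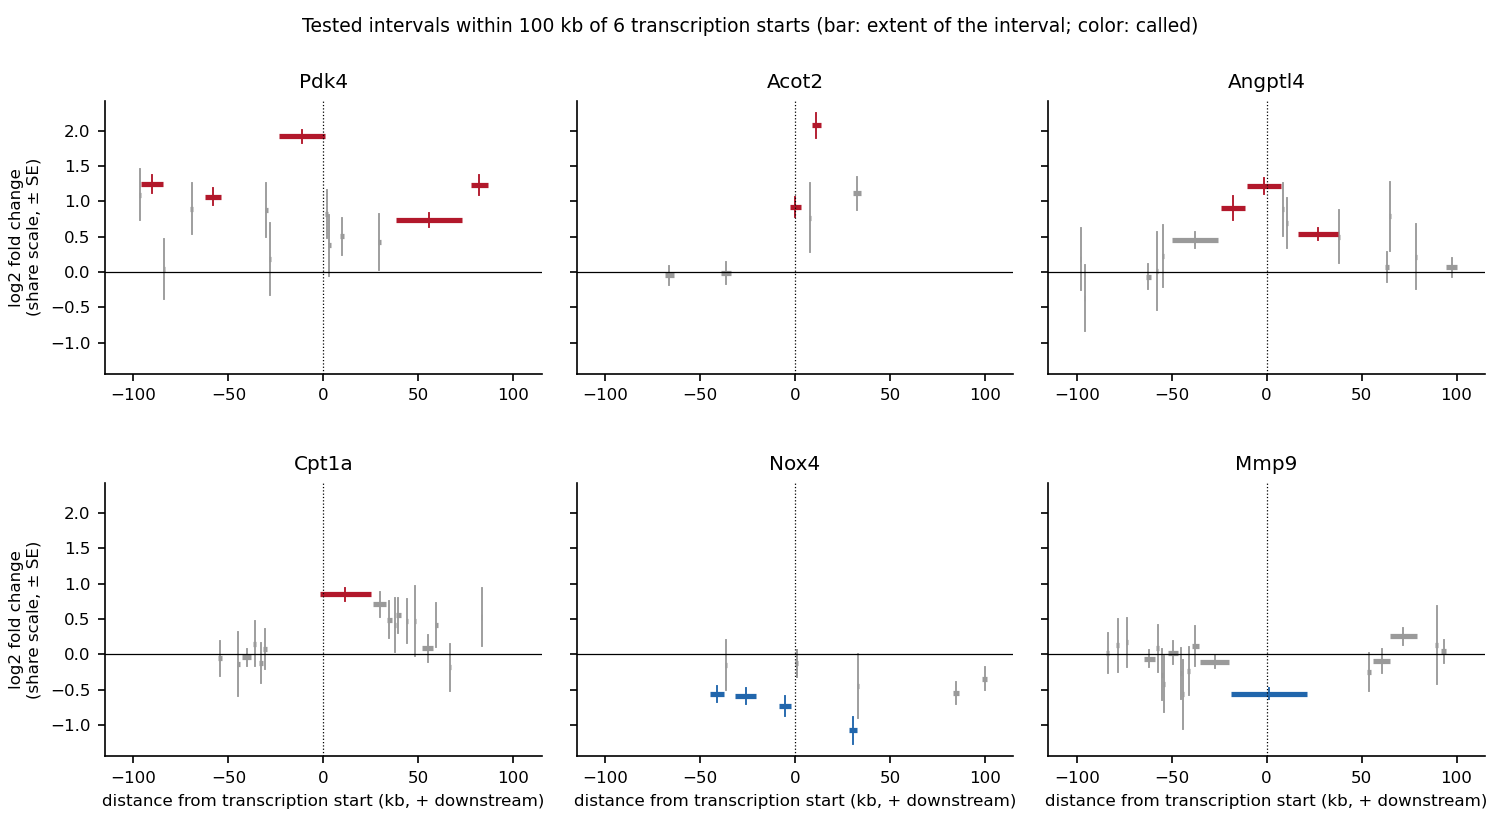
Log2 fold change on the share scale (± SE) of the tested intervals within 100 kb of 6 transcription starts, against the distance from the start, with horizontal bars for the extent of an interval and color for called ones. All 14 Pdk4 intervals are above 0 and all 9 Nox4 intervals below 0, while 1 of 17 Cpt1a and 1 of 19 Mmp9 intervals were called.

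Apart from a short interval on chromosome Y, which had the largest change among the calls, the called decreases went no lower than -1.12 on the share scale (log2), and as deposited that interval was the only one called lower. Around Nox4, an NADPH oxidase that makes hydrogen peroxide, all 9 tested intervals within 100 kb were below 0 on the share scale (-0.13 to -1.08), and 4 were called lower. The one in a Nox4 intron (chr7:87274822-87278628) had 80.9 and 97.5 units in the acetate libraries and 42.6 and 40.7 in the combined libraries, so the groups did not overlap, with a change of -1.08 ± 0.19 and a limma adjusted p of 0.0205. As deposited it had the same direction (-1.10 ± 0.31) with an adjusted p of 0.474. The interval at -6057 bp from the Nox4 start went from 289.7 and 271 units to 182 and 155 (-0.74 ± 0.14).

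Mmp9, a secreted gelatinase that cuts basement membrane collagen, had a single interval of 40104 bp over its start (chr2:164921821-164961924), chosen after its values were seen. The interval also covers the start of Slc12a5, a chloride transporter gene, so its signal cannot be given to Mmp9 alone. It had 1634 and 1520 units in the acetate libraries and 1059 and 1086 in the combined libraries (-0.56 ± 0.08, limma adjusted p = 3.44e-03 on the share scale and 0.896 as deposited). Il18rap, an accessory chain of the interleukin-18 receptor, fell in an intron from 234 and 230.3 units to 127 and 127 (-0.86 ± 0.13). Abcg1, a cholesterol exporter, fell in an intron from 226 and 244 to 139 and 133 (-0.79 ± 0.13). Slc13a2, a plasma membrane carrier of citrate and succinate, fell over its start from 256 and 244 to 149 and 153 (-0.72 ± 0.13). The symbols of other decreases under the naming rule were Dnah7c (-1.12), A730004F24Rik (-0.82, nearest protein-coding gene Tgfb2), Gm10465 (-0.80), 4930512H18Rik (-0.69 and -0.63, both in introns of Palld), Gm42761 (-0.67, nearest protein-coding gene Igfbp7), D430040D24Rik (-0.65), Gm5799 (-0.62) and Pet2 (-0.61). Bgn, which encodes the matrix proteoglycan biglycan, had an upstream interval at -0.58 ± 0.11, chosen after its values were seen.

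The number of decreases depended on how libraries were scaled. With TMM scaling, which takes each library's factor from a trimmed set of intervals, 25 intervals were called higher and 1 lower, and with median-of-ratios scaling 16 higher and 1 lower. All intervals named here kept their direction under both. On the share scale the weakest quartile of intervals moved in opposite directions in the 2 sets, with a median of 0.27 in set 1 and -0.15 in set 2, whereas the strongest quartile stood at -0.03 and 0.01. In set 1 the combined treatment thus had relatively more signal in weak intervals and in set 2 less, and the part of this in the calls was not tested.

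The interval called lower on both scales has 260 bp on chromosome Y (chrY:29071024-29071283), with Gm28986 as its nearest symbol. It had 19 and 17 reads in the acetate libraries and 0 and 0 in the combined libraries. Against a floor of 3 reads in each library, its deposited signal was at least 5.75-fold lower, and in the other 8 libraries the signal was 5.97 to 31. Of 10 probes of 60 bases spaced along it, 8 matched the genome more than once, up to 3195 times, so reads from it cannot be assigned with certainty. Of 24 intervals on this chromosome, 7 were tested.

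At the gene level, values of all intervals with the same symbol were summed. Of 19458 tested symbols, limma called 9 higher (0.0463%) and 1 lower (0.00514%) as deposited and 34 higher (0.175%) and 11 lower (0.0565%) on the share scale. With median-of-ratios scaling 3 were called higher and 1 lower. Without the intensity trend 0 were called as deposited, and 9 higher and 0 lower on the share scale. Without 1 of the 4 libraries, whichever it was, 0 were called as deposited and 2 to 18 on the share scale, the fewest without the combined library of set 1 and the most without the acetate library of set 2. Lists are described by counts and medians, beside a median of 0.01 over all genes on the share scale, where 52% of genes were above 0 and 48% below, and an unadjusted p under 0.05 was reached upward by 2.67% and downward by 3.28%. Of 3 tested pyruvate dehydrogenase kinases, Pdk4 rose (1.36 ± 0.08) and the others stood at 0.03 and 0.02. Of 8 tested acyl-CoA thioesterases 1 rose, Acot2 (1.23 ± 0.11), with a list median of 0.07. Of 6 carnitine shuttle genes 1 rose, Cpt1a (0.74 ± 0.08), with a median of 0.24 (0.07 with intervals assigned by gene bodies, an alternative chosen after seeing the data), and Cpt2 had 0.70 ± 0.12 with a limma adjusted p of 0.0581. Of 10 lipid droplet genes 1 rose, Hilpda (0.96 ± 0.11, and 0.48 ± 0.08 by gene bodies), with a median of 0.02 and 4 below 0. Of 11 further PPAR target genes Fbp2 (1.56 ± 0.17) and Ucp3 (1.06 ± 0.10, and 0.69 ± 0.08 by gene bodies) rose, all 11 were above 0 and the median was 0.27. As deposited Pdk4, Acot2, Hilpda and Fbp2 were called, and Cpt1a (0.72 ± 0.19, limma adjusted p = 1) and Ucp3 (1.03 ± 0.21, limma adjusted p = 0.078) were not.

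With 0.175% of all genes called higher, a count of 0 in a list of this size is no result about its members. Among 16 mitochondrial beta-oxidation genes 0 were called, with 14 above 0 and a median of 0.12, and 3 had an unadjusted p under 0.05. Among 11 peroxisomal oxidation genes 0 were called (median 0.03, 0 unadjusted). Among 11 PPAR receptors and partners 0 were called (median 0.05, 1 unadjusted). Lists of acetyl-CoA supply (16 tested), the tricarboxylic acid cycle (18), fatty acid uptake and activation (11), fatty acid synthesis (13), cholesterol synthesis and uptake (25), glycolysis (19), the integrated stress response (22) and the NRF2 antioxidant response (20) had 0 calls, with medians of 0.03 to 0.09 and 0 to 2 members at an unadjusted p under 0.05. Acly, the SB204990 target, had 594 and 634 units in acetate and 649 and 677 in the combined libraries, a change of 0.11 ± 0.08. Acss2 had 45.4 and 43.2 units against 52.9 and 47.7, a change of 0.18 ± 0.23 that lies within its error.

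**Figure D4:**
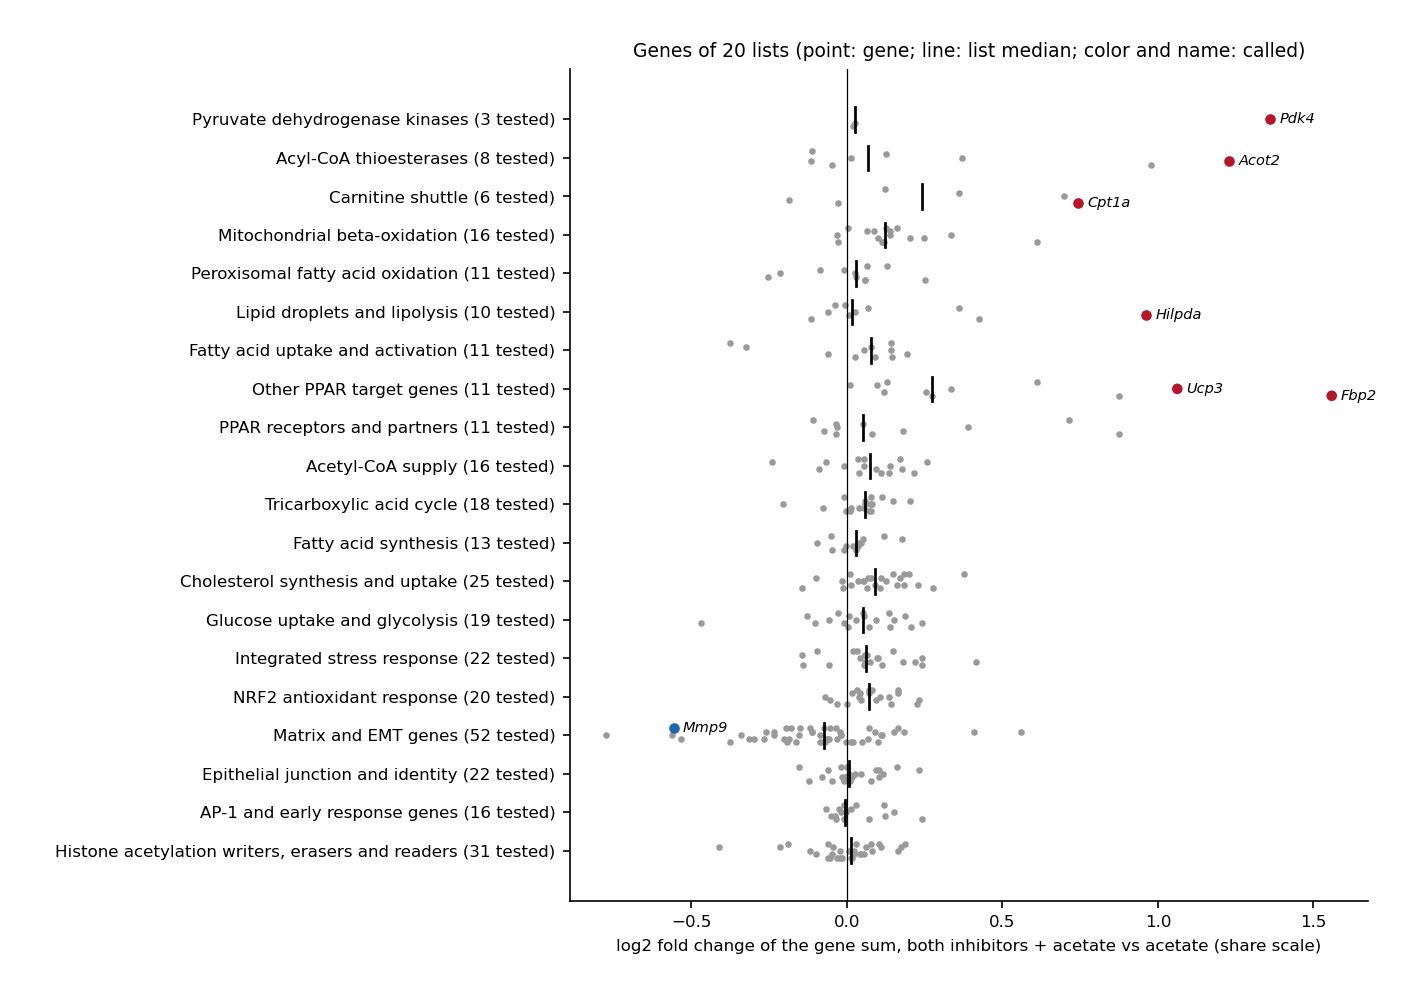
Log2 fold change of the summed share-scale signal for the tested genes of 20 lists, with a point per gene, a line at each list median, and called genes named in red (higher) or blue (lower). The called increases are Pdk4, Acot2, Cpt1a, Hilpda, Ucp3 and Fbp2, the called decrease is Mmp9, and list medians lie between -0.07 and 0.27.

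A question of the study was whether H3K27ac follows acetyl-CoA supply at genes of EMT, the switch of epithelial cells to a mesenchymal state. Of 52 tested matrix and EMT genes, 0 were called higher and 1 lower on the share scale, Mmp9, and 0 as deposited. The list median was -0.07 on the share scale and -0.10 as deposited, with 38 and 40 of 52 genes below 0, against 48% and 56.8% of all genes. As deposited the list median changed sign between the sets, with -0.32 in set 1 and 0.11 in set 2. On the share scale it was -0.10 in set 1 and -0.07 in set 2. At an unadjusted p under 0.05 there were 11 lower and 3 higher on the share scale, and 3 lower and 0 higher as deposited, where 0.37% of all genes were lower and 0.308% higher. Postn, a matricellular protein, had 1569 and 1442 units in acetate and 1145 and 1173 in the combined libraries, a change of -0.38 ± 0.07 with a limma adjusted p of 0.0687. Col1a1, a chain of type I collagen, went from 773 and 798 units to 638 and 624, a change of -0.31 ± 0.08 with a limma adjusted p of 0.212. In both genes the groups did not overlap on this scale, as in 17.7% of all genes in this direction and 17.3% in the other (8.55% and 5.29% as deposited). With intervals assigned by gene bodies, Postn had -0.24 ± 0.21 and Col1a1 -0.20 ± 0.07, with limma adjusted p of 1 and 0.575. As deposited, both were also below 0 in each set, with -0.40 ± 0.19 for Postn and -0.34 ± 0.21 for Col1a1 and adjusted p of 1 for both. Sparc, a collagen-binding matrix protein, had -0.16 ± 0.09, and Itga5, the fibronectin receptor subunit, had -0.07 ± 0.08, with adjusted p of 0.992 and 1. Lists of epithelial junction genes (22 tested), AP-1 and early response genes (16) and histone acetylation enzymes and readers (31) had 0 calls, with medians of 0.0086, -0.0047 and 0.012.

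The same intervals were then followed in cells without acetate, where etomoxir + SB204990 was compared with vehicle in libraries that the comparison above does not use, although both contrasts take their spread from 1 fit. On the share scale that contrast had 101 intervals higher (0.158% of those tested) and 64 lower (0.1%). Of the 66 intervals called higher with acetate, 64 were called higher there, which is 97% of the one list and 63.4% of the other. As deposited the contrast without acetate had 20 higher (0.0313%) and 14 lower (0.0219%), and 18 of the 27 deposited calls higher were called there, which is 66.7% and 90% of the lists. All 66 share calls were higher in both sets without acetate, as were 34% of all tested intervals. Of the 24 called lower with acetate, 13 were called lower without it, which is 54.2% and 20.3% of the lists, and 23 were lower in both sets, as were 19.2% of all tested intervals. The median change of the 66 was 0.93 with acetate and 1.04 without, and that of the 24 was -0.64 and -0.56. The Pdk4 interval had 329.6 and 353 units in vehicle and 1592 and 1388 in etomoxir + SB204990, and the Mmp9 interval had 1639 and 1548 against 966 and 1007.

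Whether the inhibitors acted differently with and without acetate was tested as the difference between the contrasts. As deposited limma called 0 intervals higher (0% of those tested) and 1 lower (0.00156%), the chromosome Y interval, and 157 had an unadjusted p under 0.05. On the share scale it called 0 in either direction (0%), with 838 at an unadjusted p under 0.05. For the Pdk4 interval the difference was -0.19, for Cpt1a -0.07, for the Acot2 interval 0.21 and for Mmp9 0.14 on the log2 scale.

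Etomoxir + acetate against acetate shares the acetate libraries, so its values are set beside the others without a comparison. In it the median of the 66 intervals was 0.80 and that of the 24 was -0.37 on the share scale, where all tested intervals had 0.10. The Pdk4 interval had 1142 and 1218 units in etomoxir + acetate, the Acot2 interval 125.5 and 129, the Cpt1a interval 1387 and 1386, the Nox4 intron interval 62.1 and 54.2 and the Mmp9 interval 1307 and 1283. Going from etomoxir + acetate to the combination, the direction depended on the scale. On the share scale the median of the 66 was 0.19 with 65 of 66 above 0. That of the 24 was -0.29 with 24 of 24 below 0. Of all tested intervals 35.6% were above 0, with a median of -0.08. As deposited the median of the 27 intervals called higher on that scale was -0.14 with 6 above and 21 below 0, where 2.77% of all tested intervals were above 0. These values share the combined libraries that chose the intervals.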

How the data were processed

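Per the labels and the study's methods, chromatin was digested with micrococcal nuclease, mixed with human spike-in chromatin and immunoprecipitated for H3K27ac. The authors processed paired-end reads with nf-core/chipseq (v1.2.2) on merged GRCh38 and mm10, called broad MACS2 peaks (cutoff 0.1, FDR 0.05), and derived factors from the share of human reads, divided by the highest factor. deepTools is named in the submitters' processing notes. The deposited table holds a signal per interval, the read count times the factor. In 2 libraries the factor was 1, so the deposited values are counts; in the others dividing by the factor gave whole reads for 100% of values within 0.01 reads. A factor moves all intervals of a library together, and no input was subtracted here. A library value of 0 allows up to 3 reads.

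Intervals whose 12-library mean reached 10 (63903), and sums per symbol, were tested with limma 3.58.1 (R 4.3.3) on log2(value + 1) with an intensity trend, 6 group means and Benjamini-Hochberg adjustment; the pseudocount understates the change of low intervals. Both scales tested the same intervals. edgeR 4.0.16 and DESeq2 1.42.0 on the recovered reads were alternatives. Starts and overlaps come from GENCODE vM21, of the same build, and motifs were searched with Python 3.11.15 (windows on chromosome 18 were not considered for printing). Named intervals are up to 15 higher and 15 lower per scale by size of change, called and with 1 direction in both sets; 2 of them are not reported here. Named genes are called list members plus Cpt1a, Acly, Acss2, Postn, Col1a1, Sparc and Itga5. The comparison, members and lists were chosen with earlier results of these data known.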

Additional observations from a re-analysis of the deposited data

Results flagged for a closer look

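The difference between the inhibitor effect with acetate and without it passed the test at 1 interval as deposited, the 260 bp interval on chromosome Y nearest to Gm28986. Its difference was -4.13 on the log2 scale with a limma adjusted p of 0.017. On the share scale the difference was -4.21 with an adjusted p of 0.854. Without acetate the interval had 12.5 and 15.1 share-scale units in vehicle and 10.2 and 39.4 in etomoxir + SB204990, so the 2 libraries of that treatment stood apart, and with acetate it had 10.4 and 13.4 in acetate and 0 in both combined libraries. The value for the combined treatment rests on 0 reads, and the log2 value depends on the pseudocount.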

How the results depend on the processing

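The log2 difference of the totals was -0.23 with set 1 alone and 0.17 with set 2 alone, so its sign was not fixed. Without 1 of the 4 libraries it was -0.22 to 0.17. The 28 deposited interval calls became 17 with median-of-ratios scaling, 18 with no filter on low values, 0 without an intensity trend (729 unadjusted), 0 with the share of reads times the factor (32 unadjusted), and 61 (48 higher, 13 lower) without the etomoxir + SB204990 library of set 2, an alternative chosen after seeing the data. Leaving out 1 library gave 4 (without the combined library of set 2) to 28. The 90 share calls became 17 with median-of-ratios scaling, 26 with TMM (25 higher, 1 lower, against 66 and 24), 2 without a trend, 332 (168 higher, 164 lower) with only the 4 libraries and 366 (186 and 180) without that etomoxir + SB204990 library. Leaving out 1 library gave 30 (without the combined library of set 1) to 53 (without the acetate library of set 2). edgeR gave 33 and 117 calls and DESeq2 32 and 96. The 10 deposited gene calls became 4 with median-of-ratios scaling, 4 within 10 kb of the start, 0 without a trend (169 unadjusted) and 0 to 0 without 1 library (39 to 706 unadjusted). The 45 share gene calls became 4, 14 and 9 and, without 1 library, 2 to 18. Assigning intervals to GENCODE gene bodies, also chosen after seeing the data, gave 8 and 48, of which 5 and 23 were among the 10 and 45, and added Acot1 (1.60), Angptl4 (0.94), Fbp1 (1.36), Lipe (0.35) and Bgn (-0.56) on the share scale, with lower values for Hilpda (0.48), Ucp3 (0.69) and the carnitine shuttle median (0.07). The deposited difference of contrasts went from 1 to 0 with median-of-ratios (1447 unadjusted), TMM (1370), the share of reads times the factor (4) and no trend (438).

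The share-scale Pdk4 start interval passed in 16 of 16 alternatives (1.89 to 1.94), the Acot2 and Fbp2 intervals in 15 of 16, those of Cpt1a and Angptl4 in 13, Mmp9 in 10 and the Nox4 intron in 9. No alternative turned the sign of a called change among the named intervals and genes, and the other calls were not checked for this. The causes of these changes were not tested. With set as a term (replicate block) there were 37 deposited and 124 share interval calls, 15 and 57 gene calls, and 1 and 0 for the difference of contrasts. The set deviations of acetate and the combination had a correlation of -0.06, and those of the 15 pairs of groups ran from -0.15 to 0.36, so the numbers were not shown to pair the libraries.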
